A study of Arabidopsis thaliana with 6 samples.

Results

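Chromatin immunoprecipitation followed by sequencing (ChIP-seq) was used to ask which genes are bound by ATH1, a BELL-type homeodomain transcription factor expressed in the shoot apex of *Arabidopsis thaliana*. The values given here concern 5 genes of light signaling that are in the authors' list of 629 candidate targets: *PHYB* (AT2G18790), *PIF4* (AT2G43010), *PIL1* (AT2G46970), *ATHB2* (AT4G16780) and *EPR1* (AT1G18330). They were selected by name, as light signaling genes of that list, and every called peak that overlapped their listed windows was collected from the peak lists of all 6 libraries. By the study's account, the list required peaks in every ATH1-GFP library and in none of the wild-type libraries. The presence of an ATH1-GFP peak at these genes, and the absence of a wild-type peak from it, were thus part of the stated selection. Both are given as a description. In the peak lists, however, the wild-type part of this rule did not hold for the whole list. At a false-discovery rate below 0.001, all 629 listed genes had a region with a peak in every ATH1-GFP library. Only 436 of them (69.3%) had such a region that no wild-type peak overlapped.

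The 3 ATH1-GFP libraries came from the loss-of-function mutant *ath1-3* carrying *pATH1:ATH1-GFP*, which is ATH1 fused to GFP under its own promoter, in a single line with 1 transgene copy that complemented the mutant. The 3 wild-type libraries came from plants with intact *ATH1* and no GFP, and anti-GFP magnetic beads were used for the precipitation of all 6. The labels describe the wild type as Landsberg *erecta*, with plants of both groups grown for 2 weeks under 16 h of light, 1 to 2 g of tissue per library. The study's text and methods instead describe Columbia plants grown for 3 weeks under 8 h of light and 16 h of dark, 2 to 3 g per library, harvested at Zeitgeber time 6. The data do not settle which description holds, and if the label is right, accession and genotype cannot be told apart. Leaves and roots were removed from both groups, which left tissue around the shoot apex, and the peak lists hold no expression values with which the tissue could be checked.

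Phytochrome B is the main receptor for the ratio of red to far-red light. Its active form, produced in red light, enters the nucleus and brings about the degradation of PHYTOCHROME INTERACTING FACTORS (PIFs), which are basic helix-loop-helix transcription factors that promote elongation. When neighboring plants deplete red light, PIFs accumulate and activate genes of the shade avoidance response, among them *ATHB2* and *PIL1*. The 5 genes therefore cover a receptor, a transcription factor that it controls, 2 genes that respond to shade, and a MYB-related gene of early phytochrome responses.

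For *PIF4*, the study designed a pair of primers to measure ATH1-GFP binding by ChIP-qPCR, and these are the sequences here that bear on binding. They are shown 5′ to 3′ because they define the piece of *PIF4* on which binding was measured a second way. By this ChIP-qPCR the study did not find significant binding of ATH1-GFP at *PIF4*. The place of this amplicon relative to the ChIP-seq peaks was not analysed here.
PIF4-F: gccaaatcacatgtgatggagcc
PIF4-R: gattctgaccagtatgcacatgg

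Peaks had been called by the authors in each library separately with MACS, without a control library. Fold enrichment is the ratio of tags (sequencing reads extended to 300 nt) piled up at its highest point, the summit, to the local background of the same library. This background is the larger of the genome-wide mean and the mean of the surrounding sequence, so the genome-wide mean is its lowest possible value. A shared region is sequence covered by a peak of each ATH1-GFP library at a false-discovery rate below 0.001, and it is called free where no peak of a wild-type library, called equally strictly, overlapped it. There were 721 shared and 309 free regions. Once duplicate tags were removed, ATH1-GFP libraries held 10194418 to 15584829 tags and 990 to 1593 peaks at this threshold, and the wild-type libraries held 3450182 to 13518524 tags and 356 to 665 peaks.

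All 5 genes had exactly 1 shared region in their window, and in each case it was free of wild-type peaks. Over the whole list, 436 of 629 genes (69.3%) had at least 1 free region. The mean fold enrichment was 4.07 at *EPR1* and between 2.15 and 2.37 at the other 4 genes. The next paragraphs give the peaks gene by gene, from the receptor to the responding genes, with coordinates on the TAIR10 genome as in the authors' files. The position of each region relative to the transcript (promoter, exon, intron or untranslated region) was not analysed here.

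*PHYB* encodes the photoreceptor phytochrome B. Its listed window covered chr2:8138118-8144912, and its free region was chr2:8139472-8139748, 277 nt long. The fold enrichment was 2.65 in ATH1-GFP replicate 1, 2.09 in replicate 2 and 1.72 in replicate 3, with a mean of 2.15 ± 0.469 (SD, n = 3), the lowest of the 5 genes. The summits held 94, 72 and 90 tags, over a local background equal to the genome-wide mean in every replicate. Replicate 3 had the highest genome-wide mean, which is why 90 tags gave a lower ratio there than 72 tags did in replicate 2. The peak of replicate 3 was close to the limit of detection, with a −log10 q of 3.71 and 3 tags more than the weakest peak kept in that library. The summits were spread over 145 nt, and that of replicate 2, at position 8139469, fell just outside the region shared by the 3 peaks. The window held no wild-type peak, and the nearest ones were 17782 to 17863 nt away.

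*PIF4* encodes a PIF that promotes elongation in response to shade and warmth. Its window, chr2:17883427-17890550, was the longest of the 5 at 7124 nt, and its free region was chr2:17889351-17889699, 349 nt long. The fold enrichment was 2.55, 2.44 and 1.77 in replicates 1, 2 and 3, with a mean of 2.25 ± 0.422 (SD, n = 3). The summits held 106, 92 and 106 tags, so replicates 1 and 3 had equal tags and differed in the local background, which was 40.9 and 59.4 tags. The −log10 q was 14.2, 11.1 and 5.11. The 3 summits fell within 27 nt of each other, at positions 17889476 to 17889503, a tighter spread than at *PHYB*. Wild-type peaks were absent from the window, and the nearest one lay 92518 nt away. Replicate 3 alone had a further weak peak 183 nt beyond the window, at chr2:17890733-17891093, with a fold enrichment of 1.66.

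*PIL1* encodes a basic helix-loop-helix protein related to PIFs, whose transcript increases rapidly in shade and which restrains the response. Its window was chr2:19294260-19299492, and its free region, chr2:19298831-19299050, was the shortest of the 5 at 220 nt. The fold enrichment was 2.65, 2.34 and 1.74 in replicates 1, 2 and 3, with a mean of 2.24 ± 0.465 (SD, n = 3). In replicate 1 this peak had the same 94 tags and the same ratio as that of *PHYB*, and in both genes the local background equaled the genome-wide mean in every replicate. The summits of *PIL1* held 94, 81 and 91 tags and were spread over 124 nt. The peak of replicate 3 was again near the limit, with a −log10 q of 3.94 and 4 tags more than the weakest peak kept in that library.

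The window of *PIL1* also held a second site, which was present in both genotypes. ATH1-GFP replicate 1 had a peak at chr2:19297473-19297791, with 84 tags and a fold enrichment of 2.37, and replicate 2 had one at chr2:19297456-19297778, with 79 tags and a fold enrichment of 2.29. Wild-type replicate 1 had a peak at chr2:19297241-19297782, with 57 tags over a background of 11.5 and a fold enrichment of 4.64. The 3 summits lay within 15 nt of each other, and no peak was called there in ATH1-GFP replicate 3 or in wild-type replicates 2 and 3. The wild-type peak was 1049 nt from the free region of *PIL1*, so the 2 sites did not overlap, and only the free region had peaks in all ATH1-GFP libraries.

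*ATHB2*, listed as *HB-2* in RefSeq, encodes an HD-ZIP II homeodomain transcription factor that is induced by shade and promotes elongation. Its window was chr4:9446114-9451585, and its free region was chr4:9447189-9447537, 349 nt long. The fold enrichment was 2.54, 2.52 and 2.04 in replicates 1, 2 and 3, with a mean of 2.37 ± 0.281 (SD, n = 3). The summits held 116, 111 and 125 tags, more than those of *PIF4*, *PIL1* and *PHYB* in every replicate. The local background was also the highest among the 5 genes in every replicate, at 45.1, 43.4 and 60.7 tags. The −log10 q was 15.4, 14.5 and 9.85, and the summits fell within 61 nt. Wild-type replicate 2 had a peak elsewhere in the window, at chr4:9450658-9450966, with 90 tags and a fold enrichment of 1.98. It lay 3121 nt from the free region, and no ATH1-GFP library had a peak there.

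*EPR1*, a REVEILLE gene of the MYB-related family that also includes core genes of the circadian clock, had the strongest peaks of the 5. Its window was chr1:6305689-6309041, and its free region was chr1:6308393-6308880, 488 nt long and 161 nt from the end of the window. The fold enrichment was 4.84, 4.14 and 3.23 in replicates 1, 2 and 3, with a mean of 4.07 ± 0.805 (SD, n = 3). The summits held 177, 156 and 176 tags, over a local background of 35.8, 36.9 and 53.8 tags, which was 2.73% to 8.59% above the genome-wide mean. The −log10 q was 59.8, 44.3 and 35.8, so that even the weakest of these values was above every value at the other genes. The 3 summits fell within 15 nt, the tightest spread of the 5 genes, at positions 6308625 to 6308640. There was no wild-type peak in the window, and the nearest ones lay 6876 nt away in replicate 3 and 7099 nt away in replicate 2.

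**Figure D1:**
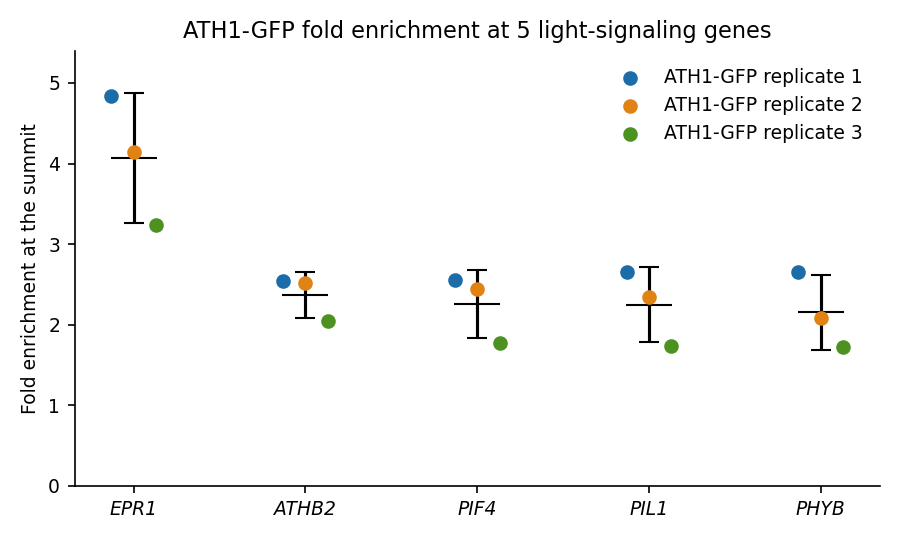
Fold enrichment at the free region of each gene, with 1 point per ATH1-GFP replicate and the mean and SD in black. *EPR1* lay between 3.23 and 4.84, above every value of the other 4 genes, which lay between 1.72 and 2.65, and replicate 3 was the lowest at each gene.

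**Figure D2:**
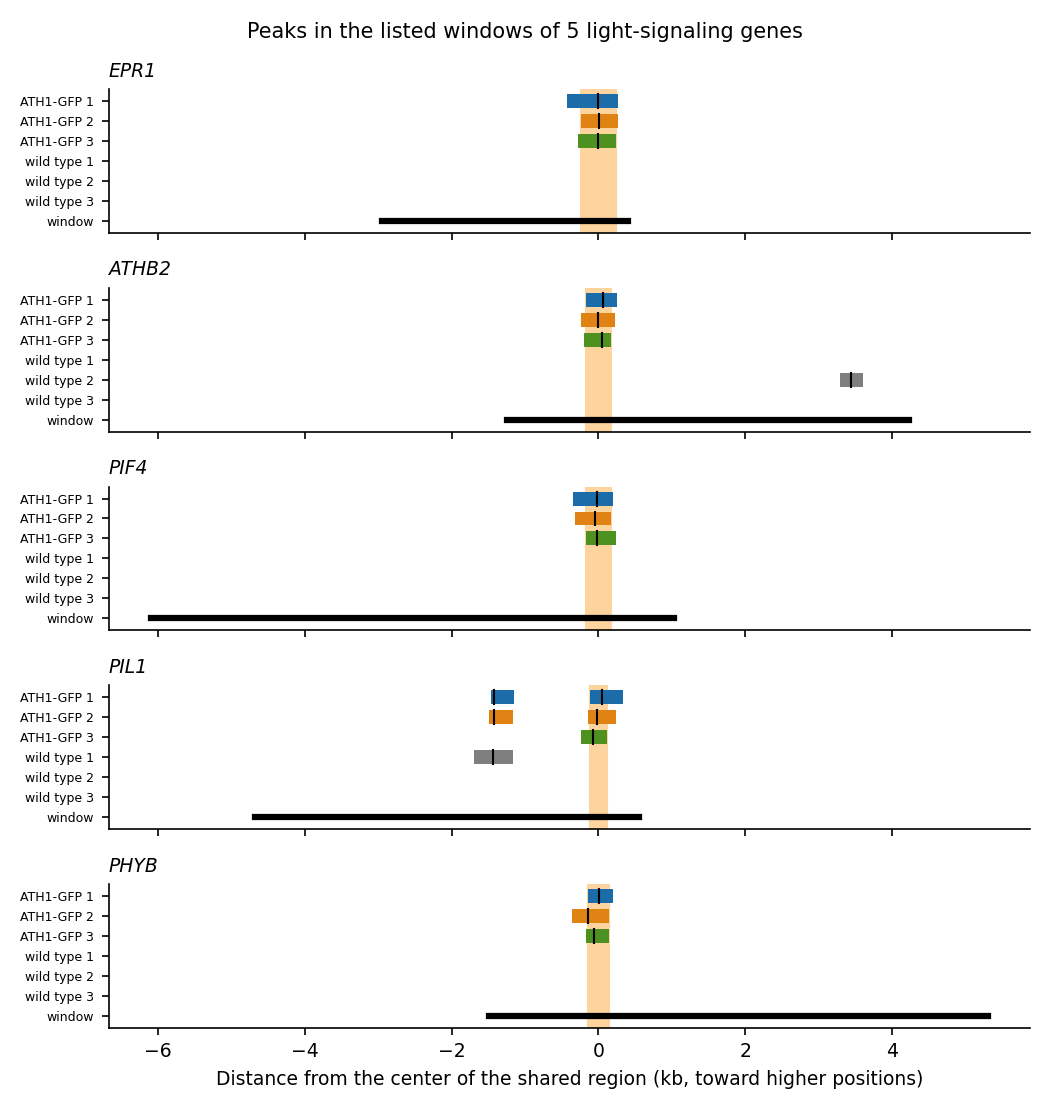
Peaks in the listed window of each gene, drawn as bars for each library against distance in kb from the center of the free region (orange band), with summits as ticks and the window as a black line. The 15 peaks that make up the 5 free regions line up at the center, and the other peaks are those of the second site in *PIL1* and the wild-type peak in *ATHB2*.

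In all, the 5 windows held 17 ATH1-GFP peaks, of which 15 formed the free regions and 2 the second site in *PIL1*, and 2 wild-type peaks, in *PIL1* and *ATHB2*. Among all listed genes, 216 of 629 (34.3%) had a wild-type peak somewhere in the window, against 2 of these 5. Every summit was inside the free region at 4 of the 5 genes, with *PHYB* as the exception. The same share was not computed over all free regions, so whether this is usual cannot be said.

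Some of the 5 sites were also assigned to a second gene, because listed windows of neighboring genes overlap. The site of *PHYB* was shared with AT2G18780, an F-box gene, whose window had 1764 nt in common with that of *PHYB*. The site of *PIL1* was shared with AT2G46980, named *ASY3* in RefSeq, which encodes a protein of the meiotic chromosome axis, with 1501 nt in common. The site of *EPR1* was shared with AT1G18335, with 1029 nt in common. In these 3 cases the same peaks gave both genes their value, and the peak lists do not show to which gene of the pair the binding relates. *PIF4* and *ATHB2* were the only listed genes at their sites, 2 of 5, against 128 of 436 genes (29.4%) in the list as a whole.

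The fold enrichment of the genes was then compared within libraries. The test was an exact permutation test, two-sided, that flipped the signs of the differences in the 3 ATH1-GFP libraries, with p-values adjusted by the Benjamini-Hochberg method over 10 pairs of genes. With 3 libraries this test cannot give a p-value below 0.25, so no pair could pass a threshold of 0.05. *EPR1* was higher than each of the other genes in 3 of 3 libraries. The mean difference was 1.70 ± 0.561 from *ATHB2*, 1.82 ± 0.424 from *PIF4*, 1.83 ± 0.347 from *PIL1* and 1.92 ± 0.357 from *PHYB* (SD, n = 3, exact p = 0.25 and adjusted p = 0.625 for each). These differences were larger than their spread between libraries.

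The other 4 genes were not separated by fold enrichment. Their means spanned 0.215, and none of their 6 pairs differed with the same sign in all libraries by more than the SD. The largest of these differences was 0.215 ± 0.290, between *ATHB2* and *PHYB* (SD, n = 3, exact p = 0.5), which became 0.380 without replicate 1 and 0.106 without replicate 2. The smallest was 0.010 ± 0.098, between *PIF4* and *PIL1* (SD, n = 3, exact p = 1). The order *ATHB2*, *PIF4*, *PIL1*, *PHYB* is therefore an order of means whose neighbors did not differ beyond their spread.

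The same genes were better separated by the number of tags at the summit. *ATHB2* had 16 ± 5.20 more tags than *PIF4*, and *PIF4* had 12.7 ± 2.08 more than *PIL1* (SD, n = 3, 3 of 3 libraries, exact p = 0.25 for each). *PIL1* and *PHYB* differed by 3.33 ± 4.93 tags and had equal tags in replicate 1 (SD, n = 3, exact p = 0.5). Fold enrichment brought the genes closer because *ATHB2* and *PIF4* stood on a local background 9.29% to 29.5% above the genome-wide mean, whereas *PIL1* and *PHYB* stood on the genome-wide mean itself. Both quantities are the authors' values for the same peaks, and tags are not scaled for depth, so the comparison was made only within a library.

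**Figure D3:**
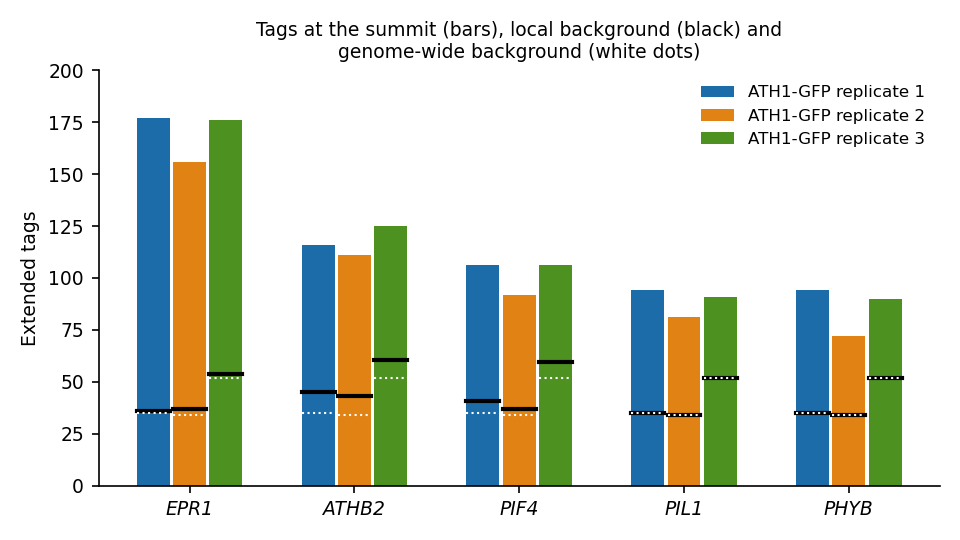
Extended tags at the summit (bars) for each gene and ATH1-GFP replicate, with the local background as a black line and the genome-wide mean as a white dotted line. Tags fell from *EPR1* to *PIL1* in every replicate, and the black line was above the white dots at *ATHB2* and *PIF4* but on them at *PIL1* and *PHYB*.

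Replicate 1 gave the highest and replicate 3 the lowest fold enrichment at all 5 genes. Among all free regions, 282 of 309 (91.3%) had their lowest value in replicate 3, and 189 of 309 (61.2%) had their highest in replicate 1 as well. The median over free regions was 2.55, 2.42 and 1.96 in replicates 1, 2 and 3. When each value was divided by the median of its library, the coefficient of variation between replicates fell from 19.8% to 7.42% at *EPR1*, from 11.9% to 2.63% at *ATHB2*, from 18.7% to 6.04% at *PIF4*, from 20.7% to 7.99% at *PIL1* and from 21.8% to 10.7% at *PHYB*. Replicate 3 also had the most tags and the highest genome-wide mean, 51.9 tags against 34.8 and 34.0, and the part of depth in this order was not tested.

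Among the 309 free regions, whose mean fold enrichment ranged from 1.78 to 6.65 with a median of 2.29, *EPR1* was in 16th place. Its percentile was 95.8, 93.9 and 95.5 in replicates 1, 2 and 3. *ATHB2* was close to the middle, with percentiles of 47.9, 57.9 and 58.9. *PIF4*, *PIL1* and *PHYB* were near the middle in replicate 1, at 49.8, 54.7 and 54.7, and low in replicate 3, at 16.5, 11.3 and 5.50. Their mean percentiles were 38.8, 35.7 and 27.2, and they were below *ATHB2* in replicates 2 and 3 but not in replicate 1.

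**Figure D4:**
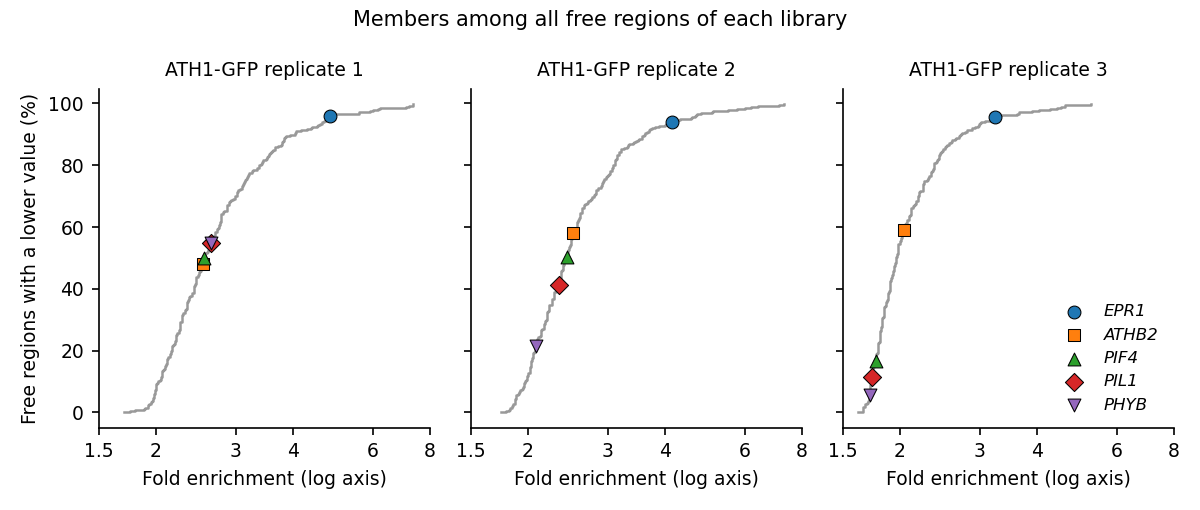
Percentile of the fold enrichment of each gene among the 309 free regions, with 1 point per ATH1-GFP replicate. *EPR1* was between 93.9 and 95.8 in every replicate, whereas *PHYB* ranged from 5.50 to 54.7.

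Stronger sites also had more closely placed summits. Over all free regions the summit positions of the 3 replicates had a median range of 84 nt, and this range was smaller where mean fold enrichment was higher (Spearman's rho = −0.63 across 309 regions of the same libraries, given as a description). *EPR1* had a range of 15 nt, at percentile 4.85 of all free regions, and *PIF4* had 27 nt, at percentile 15.2, although its fold enrichment was below the median. *ATHB2*, *PIL1* and *PHYB* had 61, 124 and 145 nt, at percentiles 39.8, 62.5 and 68.6.

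*PIL1* and *PHYB* depended on the threshold. With a false-discovery rate below 0.0001 for the peaks of both genotypes, 3 of the 5 genes still had a free region (*EPR1*, *ATHB2* and *PIF4*). Over the whole list, the genes with a free region fell from 436 to 398 of 629. Counted by region, 270 of the 309 free regions (87.4%) had ATH1-GFP peaks that all passed this threshold. *PIL1* and *PHYB* failed it in replicate 3 only.

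The absence of a wild-type peak was informative to different degrees, because a shallow library can detect only strong peaks. The lowest fold enrichment called over the genome-wide mean was 2.56 in wild-type replicate 1, 1.71 in replicate 2 and 2.06 in replicate 3. Replicate 1 was the shallowest library only after duplicate tags were removed. It began with 17358358 tags, of which 19.9% were kept, whereas wild-type replicate 3 began with 10557319, of which 63.4% were kept. In the ATH1-GFP libraries 43.6% to 53.0% were kept. At the genome-wide mean of wild-type replicate 1, which was 11.5 tags, the mean ratio of *PHYB* would be 25.9 tags and that of *PIL1* 27.1 tags, below the 31 tags of the weakest peak called there. *PIF4*, at 27.2 tags, was also below this limit. With a background up to 30% above the genome-wide mean, a margin chosen after seeing the data to cover *ATHB2*, the lowest fold enrichment called in this library was 2.37, and *ATHB2*, also at 2.37 when rounded, lay at this limit. A site as strong as *EPR1*, at 49.9 tags, would have been within reach of all 3 wild-type libraries. Wild-type replicates 2 and 3 could detect the mean ratio of every one of the 5 genes over the genome-wide mean, although for *PHYB* in replicate 3 the margin was small, 49.1 tags against a limit of 47.

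**Figure D5:**
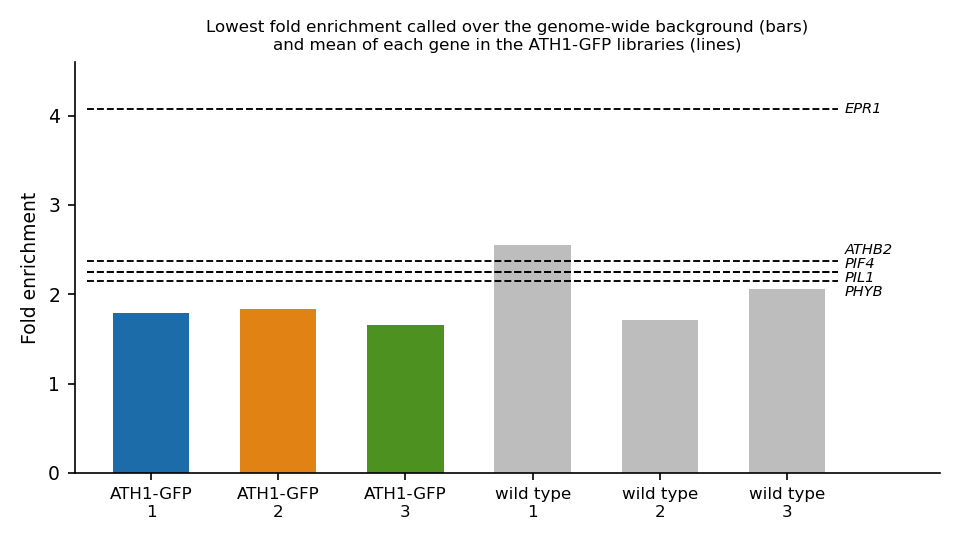
Lowest fold enrichment of any peak called over the genome-wide mean at a false-discovery rate below 0.001 in each library (bars), with the mean of each gene in the ATH1-GFP libraries as dashed lines; the lines of *PIF4* and *PIL1* nearly coincide. In wild-type replicate 1 the bar, at 2.56, was above 4 of the 5 lines, and in every other library it was below all of them.

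To see how much of the pathway was represented, 67 genes of light signaling were looked up in the authors' list. Of these, 10 were listed, the 5 genes above and 5 others, and 9 of the 10 had a free region. For comparison, 597 of 27444 protein-coding loci (2.18%) of the 5 chromosomes were listed, but the light signaling genes included the 5 chosen from the list, so their share is not independent of it. Without them, 5 of 62 were listed, and this share is not independent either, since the genes looked up were chosen with the list known and the study names *BOP1*, *BOP2* and *RGA* as bound.

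Among 9 photoreceptor genes *PHYB* was the only one listed. Among 12 genes for PIFs and related factors, *PIF4* and *PIL1* were listed and 10 were not. Among 5 HD-ZIP II genes, *ATHB2* was joined by *HAT1* (AT4G17460), with a fold enrichment of 2.37, 2.49 and 2.00 in replicates 1, 2 and 3 and a mean of 2.29 ± 0.253 (SD, n = 3). Its site, chr4:9738547-9738758, was shared with AT4G17453 and resembled that of *ATHB2* in strength. The summits of the 3 libraries were spread over 546 nt at *HAT1*, against 61 nt at *ATHB2*. *EPR1* was the only one listed of 14 REVEILLE and clock genes, and none of 11 genes of the COP, SPA, HY5 and BBX group was listed.

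Genes that act on the proteins above were also listed. *LRB1* (AT2G46260), which encodes part of a ubiquitin ligase that targets phytochrome B and PIF3, was 1 of 9 genes of phytochrome signaling and had a mean fold enrichment of 2.26 ± 0.441 (SD, n = 3), with its site shared with AT2G46270. *BOP1* and *BOP2*, which promote the turnover of PIF4, were both listed, with means of 3.10 ± 0.611 for *BOP1* and 3.07 ± 1.03 for *BOP2* (SD, n = 3). *RGA*, which encodes a DELLA protein that inhibits PIFs, was the only listed gene of 5 for DELLA proteins, with a mean of 2.91 ± 0.447 (SD, n = 3). Its shared region overlapped a peak of 1 wild-type library and so was not free. The means of *BOP1*, *BOP2* and *RGA* lay between that of *EPR1* and those of the other 4 genes. In ATH1-GFP replicate 3, however, *BOP2* was at 2.02, just below *ATHB2* at 2.04.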

How the data were processed

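Libraries from 3 ATH1-GFP and 3 wild-type samples were sequenced as single-end reads of 50 nt. The labels name Bowtie2, SAMtools and MACS2 2.0.10, and the file headers give MACS 2.0.10.20130915 without a control, an effective genome size of 90000000, a q cutoff of 0.05 and 1 tag kept per position. The fold enrichment in the deposited tables is a ratio computed by the authors with MACS, in which 1 is added to the pileup and to the background. The pileup deposited by the authors is a signal, the extended tags at the summit. The −log10 q and −log10 p values were also computed by the authors. The deposited target table gives gene windows and the authors' averages over the ATH1-GFP libraries, which equaled the means computed here for 5 of 5 genes. The study gives 3000 nt upstream and 1500 nt downstream of coding sequences as the limits, with no other gene in between. Some windows were therefore shorter than these limits allow, such as that of *EPR1* at 3353 nt.

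The genes, and the 67 genes of light signaling with which they were compared, were chosen with earlier results of these data known. The genes named are the 5 selected, those sharing their sites, and the genes of light signaling in the target table. Peaks below a false-discovery rate of 0.001 were intersected (at least 1 bp), and the local background was obtained from pileup and fold enrichment. Overlaps were checked with bedtools 2.31.1 and tested on simulated data, where 200 of 200 shared and 120 of 120 free regions were recovered. Python 3.11.15 was used with numpy 2.4.6, pandas 2.3.3, scipy 1.17.1 and matplotlib 3.10.9. Gene symbols were taken from the RefSeq table of assembly TAIR10.1. Alternatives changed the threshold, overlap, wild-type exclusion, number of libraries, scaling and reference set, or left out each library. The peak lists give no values where no peak was called, so fold enrichment was not compared between genotypes.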

Additional observations from a re-analysis of the deposited data

Results flagged for a closer look

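A site near *ATHB2* fell outside every listed window. It was counted among the 309 free regions but was assigned to no gene. It was a free region at chr4:9444018-9444376, 359 nt long, 1738 nt before the window of *ATHB2* and 2813 nt from its free region. All 3 ATH1-GFP libraries had a peak there and no wild-type library did. The fold enrichment was 2.63, 2.61 and 2.07 in replicates 1, 2 and 3, with a mean of 2.44 ± 0.321 (SD, n = 3). It was higher than at the free region of *ATHB2* in 3 of 3 libraries, by a mean of 0.0694 ± 0.0405 (exact permutation of signs, two-sided, p = 0.25, the smallest value possible with 3 libraries). It was 1 of 21 free regions outside all listed windows, and it was found by searching 3000 nt on either side of the 5 windows. Its mean was below 2.56, the lowest fold enrichment called over the genome-wide mean in wild-type replicate 1. With a background up to 30% above that genome-wide mean, the lowest called there was 2.37. The absence of a peak in this shallow library is therefore weak information.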

How the results depend on the processing

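All 5 genes kept a free region when the overlap was raised to 50 nt or to 50% of the shorter peak. Over the whole list, 432 and 421 of 629 genes then had one, against 436 in the main setting. The 5 genes also kept one when all deposited wild-type peaks were excluded (429 of 629) and when peaks in 2 libraries sufficed (446). The same held when the center of the region had to lie in the window (396) and without any 1 ATH1-GFP library (434 to 438). Not excluding wild-type peaks (629 of 629), or leaving out 1 wild-type library (436 to 504), could only keep a free region. Neither is therefore a check on the 5 genes, and settings with fewer ATH1-GFP libraries also asked for fewer peaks. With a false-discovery rate below 0.0001 the count of these genes with a free region fell from 5 to 3, without *PIL1* and *PHYB*. The count of light signaling genes fell from 9 to 7, and that of all listed genes from 436 to 398 of 629. Against all peaks of a library instead of free regions, the mean percentile of *EPR1* moved from 95.0 to 96.4, that of *ATHB2* from 54.9 to 70.2, that of *PIF4* from 38.8 to 55.4, that of *PIL1* from 35.7 to 51.7 and that of *PHYB* from 27.2 to 42.3, so *PIF4* and *PIL1* passed the middle. Leaving out 1 ATH1-GFP library changed the sign of the difference of *PIF4* from *PIL1*, which ranged from −0.032 to 0.064 and was −0.00197 without replicate 3, and of that from *PHYB*, which ranged from −0.0227 to 0.202. In both pairs the lowest value was that without replicate 2 and the highest that without replicate 1. The difference of *EPR1* stayed positive, from 1.40 to 1.96 for *ATHB2* and from 1.78 to 2.12 for *PHYB*. Without 1 library the difference of *ATHB2* from *PIF4*, *PIL1* and *PHYB* and that of *PIL1* from *PHYB* kept their sign but moved by over 1.5 times, for *ATHB2* and *PHYB* between 0.106 and 0.380. No paired analysis was possible because fold enrichment was not compared between genotypes, so that equal replicate numbers of the 2 genotypes entered no test. Differences between genes were paired within libraries. Depth after removal of duplicate tags limits the wild-type comparison. Wild-type replicate 1 could not have detected sites as weak as *PIF4*, *PIL1* and *PHYB* over its genome-wide mean.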
